A study of Mus musculus with 8 samples.

Results

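Among the 27041 genes counted in skeletal muscle, 127 had at least 0.5 CPM in both analysed libraries of LSD1skm-/- mice, which lack LSD1 in their myofibers, and at least 3 times the highest CPM of Ctrl replicates 1 to 3 in each of them. These selected genes were chosen by that rule alone, from the counts of those 5 libraries, after genes whose symbols start with Kcn or Col had been set aside. The rule also took in 3 potassium channel symbols and 1 collagen symbol, so 131 genes met it in all. CPM is the read count of a gene scaled to a library total of 1000000, and 14136 genes reached 0.5 CPM in at least 1 library. The selected genes are thus described as genes at least 3 times higher in LSD1skm-/- muscle, and not as genes that are silent in Ctrl muscle, because 112 of the 127 had more than 3 reads in at least 1 of Ctrl replicates 1 to 3 and none had 0 reads in all 3.

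The libraries come from 9-week-old male C57BL/6J mice. In LSD1skm-/- mice, floxed LSD1 alleles (LSD1 L2/L2, with exon 1 of Kdm1a between LoxP sites) were combined with a Cre recombinase under the human skeletal actin promoter (HSA-Cre), which is active in myofibers, and Ctrl mice carried the floxed LSD1 L2/L2 alleles. The other cells of the muscle keep the gene in this model, and polyadenylated RNA was taken from the whole tissue, named as gastrocnemius by the study and as skeletal muscle by the sample labels. In such bulk samples, more cells of a type and more RNA per cell cannot be told apart. The labels describe 4 Ctrl and 4 LSD1skm-/- libraries, of which 6 were analysed here, and LSD1skm-/- replicates 3 and 4 were not analysed here.

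LSD1, encoded by Kdm1a, is a demethylase that removes methyl groups from histone tails, and within the CoREST complex it works together with histone deacetylases. It is best known for keeping genes of other cell lineages low, among them neuronal genes in cells that are not neurons, and it can also support transcription together with nuclear receptors. In muscle, the present comparison addressed which genes differ when myofibers lack it.

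Kdm1a itself had 21.8, 21.9 and 26.7 CPM in Ctrl replicates 1 to 3, 3.88 in the library labelled Ctrl replicate 4, and 3.07 and 3.47 in LSD1skm-/- replicates 1 and 2. The library labelled Ctrl replicate 4 therefore goes against its label at the targeted gene. It took no part in choosing the genes, and its values are given apart from those of Ctrl replicates 1 to 3. Library totals ranged from 30654828 to 41278769 counts. In a check of library pairs, none that gave a value repeated one another within sampling noise. The pair of Ctrl replicate 2 and LSD1skm-/- replicate 2 gave no value. The defining contractile gene of adult muscle, Acta1, stood between 31853 and 38415 CPM in all 6 libraries.

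To show the regulatory sequence next to a gene and its values, promoter windows of 5 selected genes are printed here, chosen because they run from a window poor in CpG to the one richest in CpG and come from genes described below. Each window runs from 250 bases before to 50 bases after a RefSeq transcript start on GRCm38.p6, in the direction of the gene, with CpG dinucleotides and the letters TATAAA in capitals.
Actc1: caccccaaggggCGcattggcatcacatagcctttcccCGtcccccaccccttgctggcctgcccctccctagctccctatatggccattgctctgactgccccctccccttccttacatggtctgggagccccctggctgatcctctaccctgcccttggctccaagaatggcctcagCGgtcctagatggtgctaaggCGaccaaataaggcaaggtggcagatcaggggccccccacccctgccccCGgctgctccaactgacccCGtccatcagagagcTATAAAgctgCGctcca
Crybb1: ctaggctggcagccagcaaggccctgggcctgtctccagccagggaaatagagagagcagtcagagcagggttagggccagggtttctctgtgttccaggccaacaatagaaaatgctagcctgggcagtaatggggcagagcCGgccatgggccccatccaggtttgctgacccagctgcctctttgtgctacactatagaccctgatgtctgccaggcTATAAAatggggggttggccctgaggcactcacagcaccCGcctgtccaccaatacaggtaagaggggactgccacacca
Apol8: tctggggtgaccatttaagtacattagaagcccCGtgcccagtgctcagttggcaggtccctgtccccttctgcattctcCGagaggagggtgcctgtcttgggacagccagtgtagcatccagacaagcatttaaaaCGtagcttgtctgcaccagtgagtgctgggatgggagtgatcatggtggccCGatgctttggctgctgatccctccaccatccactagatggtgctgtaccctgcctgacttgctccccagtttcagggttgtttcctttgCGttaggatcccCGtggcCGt
Rcor2: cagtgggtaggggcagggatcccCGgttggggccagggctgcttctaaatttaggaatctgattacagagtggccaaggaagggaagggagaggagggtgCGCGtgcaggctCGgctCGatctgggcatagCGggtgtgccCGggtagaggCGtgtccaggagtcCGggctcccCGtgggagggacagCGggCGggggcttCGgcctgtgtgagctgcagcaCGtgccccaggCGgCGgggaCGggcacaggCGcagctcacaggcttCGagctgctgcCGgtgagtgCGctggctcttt
Stk39: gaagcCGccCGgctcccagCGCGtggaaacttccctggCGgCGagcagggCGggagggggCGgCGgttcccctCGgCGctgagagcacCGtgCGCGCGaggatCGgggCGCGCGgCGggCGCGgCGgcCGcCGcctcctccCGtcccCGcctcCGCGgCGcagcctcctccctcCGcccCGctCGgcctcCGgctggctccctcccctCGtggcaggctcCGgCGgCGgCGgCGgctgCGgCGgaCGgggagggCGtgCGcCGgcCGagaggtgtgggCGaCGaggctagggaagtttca
The Actc1 window (chromosome 2, 114052826 to 114053125, minus strand) holds 7 CpGs, and its TATAAA begins 33 bases after the annotated start. The Crybb1 window (chromosome 5, 112255570 to 112255869, plus strand) has the fewest CpGs of the 5, at 2, and a TATAAA that begins 30 bases before the start. The windows of Apol8 (chromosome 15, 77756961 to 77757260, minus strand) and Rcor2 (chromosome 19, 7267144 to 7267443, plus strand) hold 7 and 21 CpGs and no TATAAA. The Stk39 window (chromosome 2, 68471932 to 68472231, minus strand), at 80.0% G and C, holds 49 CpGs, more than any other selected gene with a window.

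Levels of the selected genes were low in Ctrl muscle and mostly stayed modest in LSD1skm-/- muscle. Their median CPM was 0.358, 0.399 and 0.359 in Ctrl replicates 1 to 3, 2.5 in the library labelled Ctrl replicate 4, and 2.64 and 2.49 in LSD1skm-/- replicates 1 and 2. For comparison, the median over the 14136 genes of the mean CPM in Ctrl replicates 1 to 3 was 8.73. The mean of the LSD1skm-/- libraries was under 1 CPM for 25 genes, from 1 to under 10 CPM for 81, from 10 to under 100 CPM for 20, and above that for Actc1 alone. The ratio of this mean to the highest of Ctrl replicates 1 to 3, with a floor of 3 counts for the Ctrl value, had a median of 5.00 and ranged from 3.14 for Rad51c to 38.5 for Phyhip. It reached 5 for 64 genes, 10 for 17 and 20 for 4. These ratios are what the rule used, so they are given as a description with no test.

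**Figure D1:**
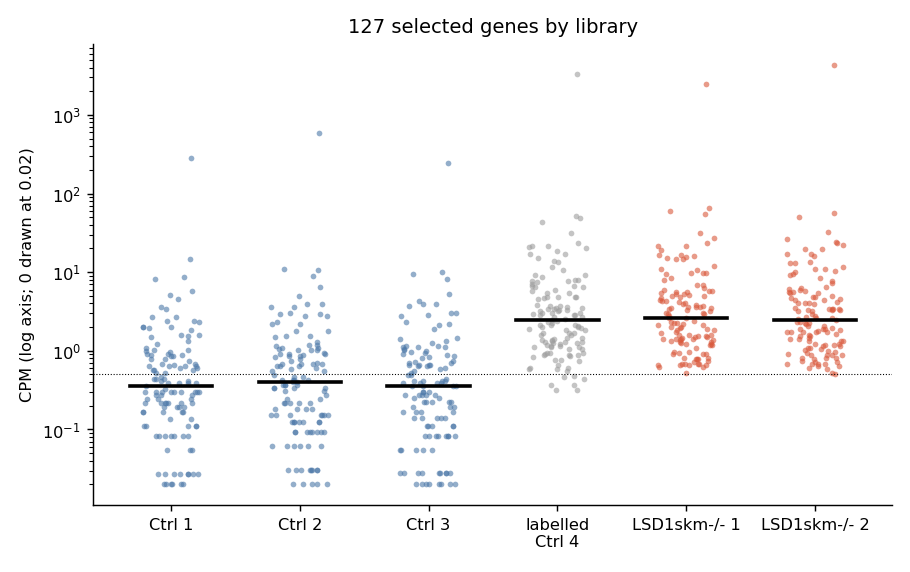
CPM of the 127 selected genes (points, log axis, genes at 0 drawn at 0.02) in each of the 6 libraries, with the median of each library as a black bar and the limit of 0.5 CPM dotted. The medians lie between 0.358 and 0.399 CPM in Ctrl replicates 1 to 3 and between 2.49 and 2.64 CPM in the library labelled Ctrl replicate 4 and the LSD1skm-/- libraries.

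Scaled by exon length, so that genes could be compared, the selected genes stood at the median percentile 26.1 of the 13941 expressed genes with a length in the mean of the LSD1skm-/- libraries, and at percentile 5.63 in the mean of Ctrl replicates 1 to 3. A single member, Actc1, ranked among the 1000 highest by CPM per kilobase, at rank 26. The next was Dkk3 at rank 2096, followed by Selenom at rank 2262.

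Both LSD1skm-/- libraries gave like values for most of these genes. The ratio of replicate 1 to replicate 2 had a median of 1.02, and 114 of the 127 genes were within 1.5 times of each other. Exceptions over 2 times apart were Dkk3, at 65.2 and 23.6 CPM, and Fancd2, at 3.82 and 1.88 CPM.

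Genes just inside and just outside the limits differed little. Inpp5j, a phosphoinositide phosphatase, was the closest inside the fold limit, with 2.72, 2.79 and 1.91 CPM in Ctrl 1 to 3, 10.7 in the library labelled Ctrl 4, and 9.72 and 8.49 in LSD1skm-/-. Apln, the ligand apelin, had 0.605, 1.2 and 1.16 CPM in Ctrl 1 to 3, 3.29 in the library labelled Ctrl 4, and 3.65 and 4.45 in LSD1skm-/-. Pdzd3 fell just outside, at 2.95 times, with 0.193, 0.337 and 0.718 CPM in Ctrl 1 to 3, 2.11 in the library labelled Ctrl 4, and 2.12 and 2.38 in LSD1skm-/-, as did Sox12, at 2.91 times. The next inside the fold limit were Pdk3, Rad51c and Tmem30b, at 3.06 to 3.1 times, and the next outside were Slc16a13, Usp44 and Hsbp1l1, at 2.87 to 2.88 times. At the CPM limit, Map3k9 was retained with 0.503 CPM in its lower LSD1skm-/- library, whereas Kctd8, with 0.489 CPM, was left out. Gja3, Padi4, Otos and Xlr3b were also inside, at 0.522 to 0.609 CPM in the lower library, and Ccnjl, Ggt6, Gm16793 and Lcat were outside, at 0.423 to 0.476 CPM. In the library labelled Ctrl replicate 4, these 5 genes inside the CPM limit had 0.315 to 0.872 CPM and the 5 outside had 0.242 to 0.799 CPM.

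A library that the rule had not used allowed a description of the same genes in separate reads. In the library labelled Ctrl replicate 4, 110 of the 127 genes (86.6%) were at 0.5 CPM or more and at least 3 times above the highest of Ctrl replicates 1 to 3, against 205 of the 14136 expressed genes (1.45%). All 127 lay above the highest of Ctrl replicates 1 to 3, as did 7366 of the expressed genes (52.1%). The library was above both LSD1skm-/- libraries for 31 genes, between them for 36 and below them for 60. On the scale of log2(CPM + 0.1), where 0 is the mean of Ctrl replicates 1 to 3 and 1 the mean of the LSD1skm-/- libraries, its median position was 0.979, with quartiles at 0.882 and 1.08. With 1 library there is no test, and its low Kdm1a value and its place beside the LSD1skm-/- libraries over all genes were known when the genes were chosen.

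**Figure D2:**
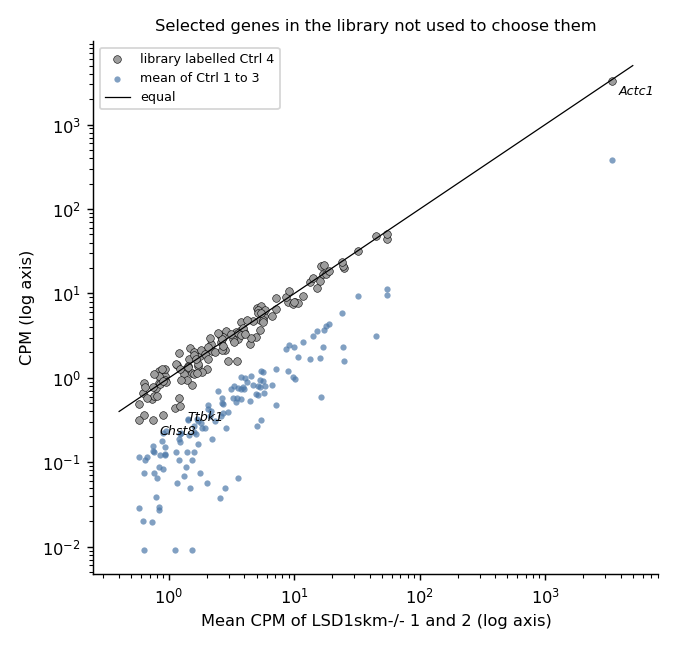
CPM of each selected gene in the library labelled Ctrl replicate 4 (grey) and mean CPM of Ctrl replicates 1 to 3 (blue) against the mean CPM of LSD1skm-/- replicates 1 and 2, on log axes, with the line of equal values. The grey points follow the line, at a median position of 0.979, with Ttbk1 and Chst8 lowest at 0.402 and 0.418.

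Other libraries held out in the same way did not take that position when they carried the Ctrl label. When the genes were chosen again without Ctrl replicate 1, 2 or 3, the library left out was past the same limits for 1 of 142, 4 of 164 and 0 of 147 genes. Over the 14136 expressed genes, the shares past them were 0.127%, 0.219% and 0.092%. With LSD1skm-/- replicate 1 or 2 left out, that library was past the limits for 127 of 165 and 127 of 174 genes. Over the expressed genes the shares were 1.27% and 1.2%. By the rule these 127 are the selected genes themselves, so the counts for the LSD1skm-/- libraries were fixed in advance. The 17 genes that did not pass in the library labelled Ctrl replicate 4 included those with the lowest positions on the log scale. Ttbk1, a kinase of the tau protein, had 0.193, 0.184 and 0.276 CPM in Ctrl 1 to 3, 0.46 in the library labelled Ctrl 4, and 1.4 and 1.06 in LSD1skm-/-, which placed it at 0.402, and Chst8, a sulfotransferase of sugar chains, had 0.138, 0.215 and 0.11 CPM in Ctrl 1 to 3, 0.315 in the library labelled Ctrl 4, and 0.685 and 0.794 in LSD1skm-/-, which placed it at 0.418. Mrgpre, a receptor of the Mas-related family, had 1.6 CPM in that library and 3.56 and 3.41 CPM in the LSD1skm-/- libraries, a position of 0.558. Gm31406, a predicted gene, had 0.11, 0 and 0.138 CPM in Ctrl 1 to 3, 0.363 in the library labelled Ctrl 4, and 0.913 and 0.873 in LSD1skm-/-, a position of 0.567, and Itgae, an integrin subunit best known from lymphocytes of epithelia, had 0.44, 0.368 and 0.359 CPM in Ctrl 1 to 3, 1.6 in the library labelled Ctrl 4, and 2.61 and 3.25 in LSD1skm-/-, a position of 0.685. Of the 10 lowest positions, the others were those of Map3k9, Galnt5, Sds, Xlr3b and Chst2, from 0.579 to 0.706.

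Because the library labelled Ctrl replicate 4 was counted as Ctrl in the comparison by labels, the groups overlapped for most selected genes. Both LSD1skm-/- libraries were above all 4 Ctrl libraries for 60 of the 127 genes, beside 9.42% of the expressed genes. In edgeR's quasi-likelihood test over the 11364 genes with a mean count above 50, 67 selected genes were tested, with a median log2 fold change of 1.44, against -0.01 over all genes tested. Of these 67, 22 were higher at an unadjusted p under 0.05, beside 5.02% (570) of all genes tested, and no gene of the table had an adjusted p under 0.05 (0%, against 18 higher genes with DESeq2). Without the library labelled Ctrl replicate 4, 56 selected genes were tested, their median log2 fold change was 2.44, and all 56 were higher at an adjusted p under 0.05 in edgeR's test, beside 4.25% (476) of the 11200 genes tested. The selected genes were chosen on this contrast, so nothing further is read from these counts, and the genes that passed the filter on low counts are not all 127. With 4 against 2 libraries an exact permutation test of a single value cannot go below p = 0.067, and the labels do not say that the samples came from separate animals, so p-values measure the spread between these samples.

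The genes with the largest ratios were nearly absent from Ctrl muscle. Phyhip, which encodes a partner of phytanoyl-CoA hydroxylase found mainly in brain, had 0.0825, 0.0307 and 0.0828 CPM in Ctrl 1 to 3, 2.86 in the library labelled Ctrl 4, and 3.75 and 3.33 in LSD1skm-/-. Zfp92, a zinc finger protein gene on the X chromosome, had 0.0275, 0.092 and 0.0276 CPM in Ctrl 1 to 3, 2.16 in the library labelled Ctrl 4, and 2.94 and 2.65 in LSD1skm-/-. Apol8, of the apolipoprotein L family, had 0, 0.0307 and 0.0828 CPM in Ctrl 1 to 3, 3.25 in the library labelled Ctrl 4, and 3.33 and 1.75 in LSD1skm-/-. Ctrl replicates 1 to 3 held 3 reads or fewer each for these 3 genes, so the ratios of pooled counts have wide counting intervals (exact binomial, 95%, counting error only). The genes were picked on these same counts, so the intervals show how loosely a ratio is known and are no test of it. For Phyhip, 241 reads in the LSD1skm-/- libraries against 7 gave a ratio of 52.9 (interval 25.3 to 133). For Zfp92, 190 reads in the LSD1skm-/- libraries against 5 gave a ratio of 58.4 (interval 24.6 to 182). For Apol8, 168 reads in the LSD1skm-/- libraries against 4 gave a ratio of 64.5 (interval 24.8 to 239.7). In each of the 3, the library labelled Ctrl replicate 4 lay near the LSD1skm-/- libraries and far above the other Ctrl libraries.

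Of the 15 genes with 3 reads or fewer in each of Ctrl replicates 1 to 3, Gpr162, an orphan G protein-coupled receptor, and Sds, the serine dehydratase of liver, had a single read among the 3 libraries. For Gpr162, 101 reads in the LSD1skm-/- libraries against 1 gave a ratio of 155 (interval 27.2 to 6191). For Sds, 75 reads in the LSD1skm-/- libraries against 1 gave a ratio of 115 (interval 20.1 to 4613). Otos, which encodes otospiralin of the inner ear, also had 1 read there and 43 in the LSD1skm-/- libraries. The exons of Sds overlap those of Plbd2 and Gm15690 on the opposite strand, and the strand setting of the counting was not given in the sources used here. Plbd2 rose by 1.21 on the log2 scale without the library labelled Ctrl replicate 4 (standard error 0.09, adjusted p = 0.00121, edgeR), with 27.5, 28.9 and 28.3 CPM in Ctrl 1 to 3, 61.5 in the library labelled Ctrl 4, and 69.4 and 67.4 in LSD1skm-/-. Without strand, reads of the pair cannot be told apart.

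Pla2g5, Ndrg4, Chrna9 and B3gat1 also had large ratios, with more than 3 reads in every Ctrl library. Pla2g5, a secreted phospholipase A2, had 0.358, 0.491 and 0.911 CPM in Ctrl 1 to 3, 21.2 in the library labelled Ctrl 4, and 19.3 and 13.1 in LSD1skm-/-. Ndrg4, of a family first described downstream of N-myc and known from heart and brain, had 1.6, 1.78 and 1.44 CPM in Ctrl 1 to 3, 20.2 in the library labelled Ctrl 4, and 27.2 and 22.1 in LSD1skm-/-. Chrna9, the acetylcholine receptor subunit of cochlear hair cells, had 0.303, 0.337 and 0.166 CPM in Ctrl 1 to 3, 6.66 in the library labelled Ctrl 4, and 4.4 and 5.58 in LSD1skm-/-. B3gat1, the glucuronyltransferase that makes the HNK-1 sugar epitope, had 0.523, 0.368 and 0.552 CPM in Ctrl 1 to 3, 8.72 in the library labelled Ctrl 4, and 8.35 and 5.87 in LSD1skm-/-. In these 4 genes the highest Ctrl value among replicates 1 to 3 was far below the lowest LSD1skm-/- value, and the library labelled Ctrl replicate 4 was within or near the LSD1skm-/- range. Dkk3, a secreted protein of the Dickkopf family, combined a ratio of 11.2 with the widest gap between the LSD1skm-/- libraries, at 2.37, 3.96 and 3.01 CPM in Ctrl 1 to 3, 48.4 in the library labelled Ctrl 4, and 65.2 and 23.6 in LSD1skm-/-. Arhgef19 had 0, 0.092 and 0.0552 CPM in Ctrl 1 to 3, 2.23 in the library labelled Ctrl 4, and 1.4 and 1.53 in LSD1skm-/-. Prelid3a, of a family of mitochondrial lipid carriers, had 0.11, 0.184 and 0.0276 CPM in Ctrl 1 to 3, 0.824 in the library labelled Ctrl 4, and 1.66 and 1.4 in LSD1skm-/-, which left the library labelled Ctrl replicate 4 below both LSD1skm-/- libraries. Marveld3, a tight junction protein, had 0.0275, 0 and 0.0552 CPM in Ctrl 1 to 3, 1.21 in the library labelled Ctrl 4, and 0.979 and 0.688 in LSD1skm-/-. The predicted genes Gm5124 and Gm13883, also among the 25 largest ratios, had 1.36 and 0.785 CPM in the mean of the LSD1skm-/- libraries and 1.26 and 0.751 CPM in the library labelled Ctrl replicate 4. Arhgef19, Marveld3 and Gm13883 had 3 reads or fewer in each of Ctrl replicates 1 to 3, so their ratios are loosely known.

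**Figure D3:**
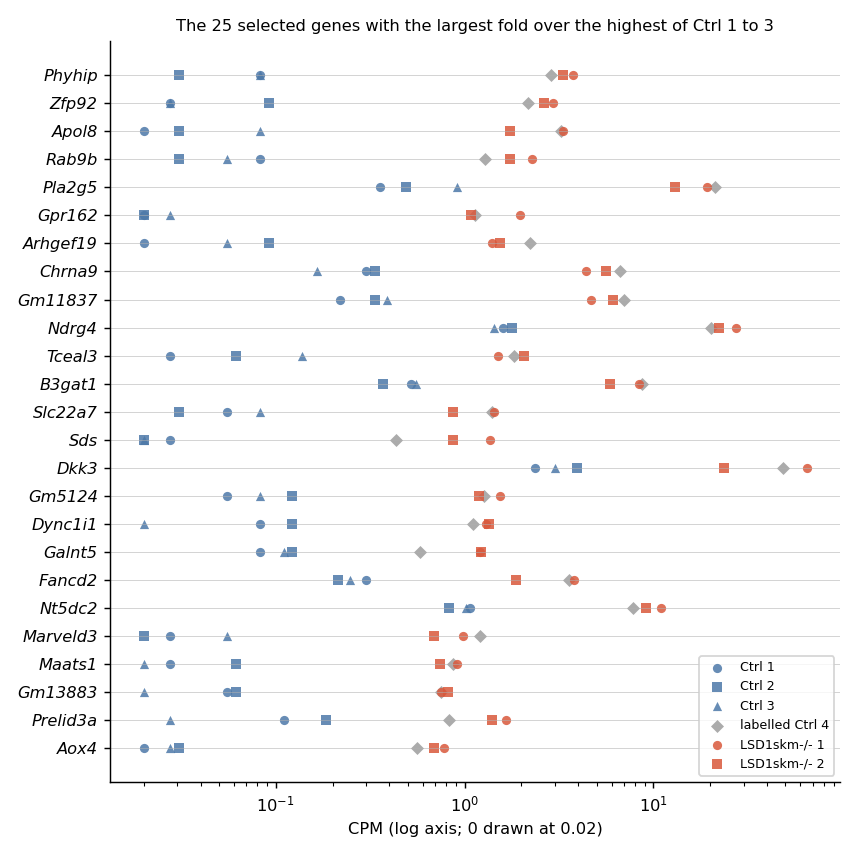
CPM in each of the 6 libraries (log axis, 0 drawn at 0.02) for the 25 selected genes with the largest ratio of the LSD1skm-/- mean to the highest of Ctrl replicates 1 to 3, from Phyhip at the top to Aox4. The grey diamonds of the library labelled Ctrl replicate 4 lie among or near the red LSD1skm-/- points, with Sds (0.436 CPM) and Galnt5 (0.581 CPM) farthest below them.

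The 94 genes with a known role fall into 8 functional groups, which were assigned with the list in view and which hold between 6 and 17 genes each. Among 11 genes of muscle and cytoskeleton, the median ratio was 5.15, and all 11 passed the fold limit in the library labelled Ctrl replicate 4. Actc1, the alpha-actin of heart and fetal skeletal muscle, had 284, 597 and 246 CPM in Ctrl 1 to 3, 3319 in the library labelled Ctrl 4, and 2468 and 4311 in LSD1skm-/-, a mean of 376 ± 192 CPM (SD, n = 3) in Ctrl replicates 1 to 3 and 3390 ± 1303 CPM (SD, n = 2) in LSD1skm-/- muscle. Cyfip2, a subunit of the WAVE complex that controls actin branching, had 5.12, 5.0 and 2.84 CPM in Ctrl 1 to 3, 18.4 in the library labelled Ctrl 4, and 21.4 and 16.2 in LSD1skm-/-. Motor subunits were also found here, Kif5c, a kinesin heavy chain of neurons, with 0.633, 0.552 and 0.359 CPM in Ctrl 1 to 3, 3.46 in the library labelled Ctrl 4, and 3.49 and 3.33 in LSD1skm-/-. Dync1i1, a dynein intermediate chain, had 0.0825, 0.123 and 0 CPM in Ctrl 1 to 3, 1.11 in the library labelled Ctrl 4, and 1.3 and 1.35 in LSD1skm-/-. Maats1, known from motile cilia and flagella, stayed lower, with 0.0275, 0.0613 and 0 CPM in Ctrl 1 to 3, 0.872 in the library labelled Ctrl 4, and 0.913 and 0.741 in LSD1skm-/-.

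Genes known from ear, retina and lens numbered 11, with a median ratio of 5.51, and 10 of the 11 passed in the library labelled Ctrl replicate 4. Hair-cell genes included Espn, which encodes the actin bundler espin, with 0.248, 0.153 and 0.276 CPM in Ctrl 1 to 3, 1.11 in the library labelled Ctrl 4, and 1.4 and 1.75 in LSD1skm-/-. Whrn, which encodes the scaffold whirlin, had 0.99, 1.5 and 1.1 CPM in Ctrl 1 to 3, 5.84 in the library labelled Ctrl 4, and 5.38 and 5.37 in LSD1skm-/-. Ush1g, a further scaffold of the hair bundle, had 0.798, 0.46 and 0.359 CPM in Ctrl 1 to 3, 2.5 in the library labelled Ctrl 4, and 4.8 and 4.0 in LSD1skm-/-. Tecta, of the tectorial membrane, had 0.66, 0.889 and 1.27 CPM in Ctrl 1 to 3, 3.71 in the library labelled Ctrl 4, and 5.19 and 5.42 in LSD1skm-/-. Photoreceptor genes were Gnb3, a transducin beta subunit of cones, with 0.633, 0.644 and 1.16 CPM in Ctrl 1 to 3, 6.4 in the library labelled Ctrl 4, and 5.97 and 5.58 in LSD1skm-/-. Abca4, a transporter of the retina, had 0.413, 0.92 and 1.13 CPM in Ctrl 1 to 3, 4.77 in the library labelled Ctrl 4, and 5.25 and 4.05 in LSD1skm-/-. The opsin gene Opn1sw had 0.22, 0.184 and 0 CPM in Ctrl 1 to 3, 0.775 in the library labelled Ctrl 4, and 0.816 and 0.688 in LSD1skm-/-. Lens genes were Crybb1, a beta-crystallin whose promoter is printed above, with 1.49, 0.92 and 0.663 CPM in Ctrl 1 to 3, 7.58 in the library labelled Ctrl 4, and 9.56 and 10.1 in LSD1skm-/-, and the connexin Gja3, with 0, 0.0613 and 0 CPM in Ctrl 1 to 3, 0.654 in the library labelled Ctrl 4, and 0.522 and 0.715 in LSD1skm-/-. Opn1sw and Gja3 are near the limit of 0.5 CPM, whereas Crybb1 stood at 9.56 and 10.1 CPM in LSD1skm-/- muscle.

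Of 14 genes of neurons and synapses, with a median ratio of 4.8, 11 passed in the library labelled Ctrl replicate 4. Slc17a7, the vesicular glutamate transporter, had 0.275, 0.092 and 0.193 CPM in Ctrl 1 to 3, 2.08 in the library labelled Ctrl 4, and 1.89 and 2.49 in LSD1skm-/-. Syn2, a synapsin that tethers synaptic vesicles, had 1.54, 1.2 and 1.1 CPM in Ctrl 1 to 3, 6.59 in the library labelled Ctrl 4, and 6.88 and 7.3 in LSD1skm-/-. Mapk10, the neuronal JNK kinase, had 0.633, 1.01 and 0.221 CPM in Ctrl 1 to 3, 5.94 in the library labelled Ctrl 4, and 5.32 and 4.9 in LSD1skm-/-. Lgi2, a secreted leucine-rich protein, had 1.82, 2.97 and 2.18 CPM in Ctrl 1 to 3, 7.99 in the library labelled Ctrl 4, and 9.69 and 10.3 in LSD1skm-/-. The latter pair differ in Ctrl level, since Lgi2 was already at 1.82 to 2.97 CPM there. None of the 10 neuron markers on a separate list was a selected gene. The summed CPM of those markers was 5.95 to 8.66 in Ctrl replicates 1 to 3, 8.53 in the library labelled Ctrl replicate 4 and 7.01 to 8.03 in LSD1skm-/- muscle. The ranges of that sum overlap. Of 27 genes listed as repressed by REST, a repressor that works with CoREST, 25 are in the count table and none of these was a selected gene either. Their summed CPM was 38.1 to 56.2 in Ctrl replicates 1 to 3, 47.0 in the library labelled Ctrl replicate 4 and 32.7 to 41.7 in LSD1skm-/- muscle. Of this sum, 43.2% to 69.2% was Gdap1. Without Gdap1, a sum taken after seeing the data, they came to 16.6 to 19.75 CPM in Ctrl replicates 1 to 3. That sum was 21.8 CPM in the library labelled Ctrl replicate 4 and 16.8 to 18.55 in LSD1skm-/- muscle. Only 5 of these genes had enough reads to be tested.

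Roles in chromatin, DNA repair or RNA binding were held by 13 genes, with a median ratio of 4.39, and 10 of them passed in the library labelled Ctrl replicate 4. Rcor2, a paralogue of the CoREST scaffold to which LSD1 binds, had 0.193, 0.0307 and 0.138 CPM in Ctrl 1 to 3, 0.848 in the library labelled Ctrl 4, and 0.685 and 1.01 in LSD1skm-/-. Its promoter, printed above, is rich in CpG. The scaffolds expressed in muscle, Rcor1 and Rcor3, which were named after their values were seen, had log2 fold changes of 0.24 (standard error 0.15) and -0.10 (standard error 0.11) without the library labelled Ctrl replicate 4, with adjusted p = 0.449 and 0.648 in edgeR's test. Among 20 genes of LSD1-containing complexes, Rcor2 was the only selected gene. Dpf1, a subunit of the neuronal BAF remodelling complex, had 0.88, 0.644 and 0.69 CPM in Ctrl 1 to 3, 4.6 in the library labelled Ctrl 4, and 3.07 and 4.45 in LSD1skm-/-. Phf19, an accessory protein of Polycomb complex PRC2, had 1.02, 1.07 and 0.966 CPM in Ctrl 1 to 3, 3.25 in the library labelled Ctrl 4, and 3.43 and 4.05 in LSD1skm-/-. Repair genes were Fancd2, of the Fanconi anaemia pathway, with 0.303, 0.215 and 0.249 CPM in Ctrl 1 to 3, 3.59 in the library labelled Ctrl 4, and 3.82 and 1.88 in LSD1skm-/-. Neil2, a DNA glycosylase, had 0.11, 0.307 and 0.11 CPM in Ctrl 1 to 3, 1.28 in the library labelled Ctrl 4, and 1.3 and 1.14 in LSD1skm-/-. Rad51c, of homologous recombination, had 0.303, 0.858 and 0.304 CPM in Ctrl 1 to 3, 2.37 in the library labelled Ctrl 4, and 2.64 and 2.75 in LSD1skm-/-. Lin28a, which blocks processing of let-7 microRNAs, stayed near the limit, with 0.0825, 0.184 and 0 CPM in Ctrl 1 to 3, 1.07 in the library labelled Ctrl 4, and 0.783 and 0.873 in LSD1skm-/-.

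Ligands, receptors and cell surface proteins made up 14 genes, with a median ratio of 5.01, of which 12 passed in the library labelled Ctrl replicate 4. Among ligands, Igf2, the fetal insulin-like growth factor, had 0.578, 0.674 and 0.69 CPM in Ctrl 1 to 3, 3.03 in the library labelled Ctrl 4, and 5.71 and 4.18 in LSD1skm-/-. Of the 50-base stretches of its transcripts, 61.2% are shared with the readthrough gene Gm49394, so its count is uncertain. The secreted Wnt antagonist Frzb had 5.83, 6.53 and 5.3 CPM in Ctrl 1 to 3, 23.6 in the library labelled Ctrl 4, and 23.6 and 23.9 in LSD1skm-/-. Receptors included Lgr6, which binds R-spondins, with 0.523, 0.123 and 0.414 CPM in Ctrl 1 to 3, 3.0 in the library labelled Ctrl 4, and 2.02 and 2.25 in LSD1skm-/-. Kl, which encodes klotho, the coreceptor for FGF23, had 0.303, 0.153 and 0.359 CPM in Ctrl 1 to 3, 1.87 in the library labelled Ctrl 4, and 1.86 and 1.32 in LSD1skm-/-. Emb, which encodes embigin, a partner of monocarboxylate transporters, had 1.32, 1.01 and 0.442 CPM in Ctrl 1 to 3, 4.8 in the library labelled Ctrl 4, and 6.33 and 4.98 in LSD1skm-/-. Lag3, an inhibitory receptor best known from T cells, had 0.385, 0.399 and 0.276 CPM in Ctrl 1 to 3, 2.69 in the library labelled Ctrl 4, and 2.22 and 2.96 in LSD1skm-/-. No marker of the T and B lymphocyte list was a selected gene, and the summed CPM of its 12 markers was 1.41 to 33.1 in Ctrl replicates 1 to 3, 3.05 in the library labelled Ctrl replicate 4 and 2.75 to 2.84 in LSD1skm-/- muscle.

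Metabolism and transport formed the largest of the 8 groups, with 17 genes, a median ratio of 5.08 and 15 genes past the limit in the library labelled Ctrl replicate 4. Gatm, the first enzyme of creatine synthesis, had 3.66, 3.04 and 4.34 CPM in Ctrl 1 to 3, 21.5 in the library labelled Ctrl 4, and 14.5 and 19.6 in LSD1skm-/-. Ak4, an adenylate kinase of the mitochondrial matrix, had 1.98, 3.59 and 1.41 CPM in Ctrl 1 to 3, 20.9 in the library labelled Ctrl 4, and 21.7 and 26.7 in LSD1skm-/-. Aldoc, the brain form of aldolase, had 0.44, 0.307 and 0.414 CPM in Ctrl 1 to 3, 3.05 in the library labelled Ctrl 4, and 3.46 and 1.91 in LSD1skm-/-. Pdk3, a kinase that inhibits pyruvate dehydrogenase, had 0.688, 0.736 and 0.663 CPM in Ctrl 1 to 3, 3.39 in the library labelled Ctrl 4, and 2.25 and 2.7 in LSD1skm-/-. The transporters Slc16a7, for monocarboxylates, and Slc37a2, of the sugar-phosphate exchanger family, were each at 0.853 CPM or less in Ctrl replicates 1 to 3. Slc16a7 had 0.853, 0.674 and 0.663 CPM in Ctrl 1 to 3, 3.32 in the library labelled Ctrl 4, and 3.65 and 2.65 in LSD1skm-/-, and Slc37a2 had 0.853, 0.797 and 0.663 CPM in Ctrl 1 to 3, 4.82 in the library labelled Ctrl 4, and 5.68 and 4.87 in LSD1skm-/-. Ppp1r3b, a glycogen-targeting subunit of protein phosphatase, had 0.798, 1.04 and 0.497 CPM in Ctrl 1 to 3, 3.85 in the library labelled Ctrl 4, and 4.34 and 3.49 in LSD1skm-/-.

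The 6 genes of sugar chains and proteoglycans had the lowest median ratio of the 8 groups, 3.85, and 3 of the 6 passed in the library labelled Ctrl replicate 4. Hs6st2, a heparan sulfate sulfotransferase, had 2.7, 2.91 and 3.67 CPM in Ctrl 1 to 3, 15.3 in the library labelled Ctrl 4, and 15.2 and 13.2 in LSD1skm-/-. Arsb, a lysosomal sulfatase, had 3.36, 3.62 and 3.92 CPM in Ctrl 1 to 3, 11.7 in the library labelled Ctrl 4, and 16.7 and 13.4 in LSD1skm-/-. Chst2, Chst8 and Arsb were the genes that did not pass, with positions of 0.706, 0.418 and 0.828 in that library. Kinases and regulators of small GTPases, 8 in all, had a median ratio of 4.92, and 7 of them passed. Stk39, the kinase SPAK that regulates cation-chloride cotransporters, had 2.01, 2.18 and 2.79 CPM in Ctrl 1 to 3, 16.8 in the library labelled Ctrl 4, and 16.7 and 17.3 in LSD1skm-/-. Rap1gap2, which switches off Rap1, had 8.28, 10.9 and 9.5 CPM in Ctrl 1 to 3, 43.9 in the library labelled Ctrl 4, and 60.0 and 49.8 in LSD1skm-/-. Rab9b, a Rab GTPase of late endosomes, had 0.0825, 0.0307 and 0.0552 CPM in Ctrl 1 to 3, 1.28 in the library labelled Ctrl 4, and 2.28 and 1.75 in LSD1skm-/-. The remaining 33 genes had no assigned role, with a median ratio of 5.6, and 31 of them passed. Gm11837, a noncoding gene antisense to Necab1, had 0.22, 0.337 and 0.387 CPM in Ctrl 1 to 3, 7.03 in the library labelled Ctrl 4, and 4.66 and 6.14 in LSD1skm-/-. Tm6sf1, a membrane protein gene, had 14.5, 10.8 and 8.28 CPM in Ctrl 1 to 3, 51.3 in the library labelled Ctrl 4, and 54.4 and 55.8 in LSD1skm-/-.

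Relatives of the selected genes, defined by a shared symbol stem, were not chosen on their values and could be tested. Of 919 tested relatives none had an adjusted p under 0.05 by labels in edgeR's test. At an unadjusted p under 0.05, 48 of the 919 were higher, beside 5.02% (570 of 11364) of all genes tested. DESeq2 called 1. Without the library labelled Ctrl replicate 4, 35 of 904 (3.87%) were higher and 1 was lower at an adjusted p under 0.05, close to the 4.25% of all genes tested. Their median log2 fold change was 0.00. The relatives named next were picked from those called, so they do not speak for their families. Beside Galnt5, the O-glycosylation enzymes Galnt7, Galnt10 and Galnt17 rose by 0.88 (standard error 0.13, adjusted p = 0.0117, edgeR), 0.85 (standard error 0.12, adjusted p = 0.0109, edgeR) and 1.18 (standard error 0.19, adjusted p = 0.0143, edgeR) on the log2 scale. Galnt17 had 5.01, 4.81 and 6.93 CPM in Ctrl 1 to 3, 14.5 in the library labelled Ctrl 4, and 13.1 and 13.5 in LSD1skm-/-. Beside Chrna9, the muscle acetylcholine receptor subunit Chrna1 rose by 0.69 (standard error 0.14, adjusted p = 0.0374, edgeR), with 15.1, 16 and 11.7 CPM in Ctrl 1 to 3, 27.8 in the library labelled Ctrl 4, and 23.9 and 24.2 in LSD1skm-/-. Beside Stk39 and Stk36, the kinase Stk26 rose by 1.3 (standard error 0.19, adjusted p = 0.0118, edgeR). Among the other relatives that rose in this fit were Pla2g7, Padi2, Gnb5, Clstn1, Tceal8 and Tceal9, with log2 fold changes between 0.6 and 0.97. Tceal1, Tceal5 and Tceal7 were tested in it and not called. Of the phospholipase A2 genes that were not selected, Pla2g7 was the 1 of 5 tested that was higher.

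For several selected genes a paralogue with many reads in muscle did not pass the test, and those named here were picked after their values were seen. The fit was edgeR's, without the library labelled Ctrl replicate 4. Pdk2, beside Pdk3, stood at -0.06 ± 0.11 on the log2 scale (fold change ± standard error, adjusted p = 0.813). Ndrg2, beside Ndrg4, was at -0.17 ± 0.11 (adjusted p = 0.46). Cyfip1, beside Cyfip2, was at -0.07 ± 0.10 (adjusted p = 0.772), and Dync1i2, beside Dync1i1, at -0.04 ± 0.10 (adjusted p = 0.873). Ndrg2 was at 1851 to 2025 CPM in Ctrl replicates 1 to 3, at 1781 CPM in the library labelled Ctrl replicate 4 and at 1782 and 1826 CPM in LSD1skm-/- muscle.

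Genes of denervated and developing muscle, formed a list of 20 that holds Actc1. Without the library labelled Ctrl replicate 4, 3 of the 16 tested genes (18.8%) were higher at an adjusted p under 0.05 in edgeR's test, beside 4.25% of all genes tested, none was lower, and the median log2 fold change was -0.04, against -0.0049 over all genes tested. Apart from the selected gene Actc1, these were Chrna1 and Chrnb1, subunits of the muscle acetylcholine receptor, 2 of 15. Myh3, the embryonic myosin, had 4.7, 5.83 and 8.23 CPM in Ctrl 1 to 3, 6.66 in the library labelled Ctrl 4, and 5.09 and 4.31 in LSD1skm-/-. Myog, the transcription factor myogenin, had 5.12, 5.95 and 3.7 CPM in Ctrl 1 to 3, 7.41 in the library labelled Ctrl 4, and 7.7 and 6.06 in LSD1skm-/-, neither of which passed. Of 16 germline genes listed, 10 are in the count table, none of these was a selected gene, and the 1 tested was not called.

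Of 119 markers of 12 other cell types, 116 are in the count table, none of them at 0 in every library, and none was a selected gene. Their part in the levels of the selected genes was not tested. Fat markers differed between libraries in ways that a sum hides. Adipocyte markers summed to 2757 to 4366 CPM in Ctrl replicates 1 to 3, 2144 in the library labelled Ctrl replicate 4 and 1558 to 1658 in LSD1skm-/- muscle. At least 57.3% of that sum in each library was Car3, a carbonic anhydrase that myofibers also express. Car3 was the 1 of 9 tested genes that was lower without the library labelled Ctrl replicate 4, beside 1.02% of all genes tested. Adipoq, the fat hormone adiponectin, had 12.2, 9.66 and 0.746 CPM in Ctrl 1 to 3, 20.7 in the library labelled Ctrl 4, and 0.13 and 0.556 in LSD1skm-/-. Plin1, which coats fat droplets, had 4.15, 6.07 and 0.221 CPM in Ctrl 1 to 3, 11.3 in the library labelled Ctrl 4, and 0.0652 and 0.185 in LSD1skm-/-, and Cidec, a further droplet protein, had 10.6, 11 and 0.608 CPM in Ctrl 1 to 3, 16.2 in the library labelled Ctrl 4, and 0.196 and 0.397 in LSD1skm-/-. These 3 were highest in the library labelled Ctrl replicate 4 and low in Ctrl replicate 3 and both LSD1skm-/- libraries. The list's median log2 fold change without that library was -2.97, and Adipoq, Plin1 and Cidec did not pass the test (adjusted p = 0.0924, 0.106 and 0.0872, edgeR).

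For vessel cells too, 1 gene set the sum. Smooth muscle and pericyte markers summed to 3675 to 4432, 3495 and 3352 to 3413 CPM in the same order of libraries, and 85.1% to 91.1% of this was Des, which encodes desmin, also a myofiber gene. Without Des, a sum taken after seeing the data, they came to 327.5 to 417 CPM in Ctrl replicates 1 to 3, 519.6 in the library labelled Ctrl replicate 4 and 342 to 398 in LSD1skm-/- muscle. All 9 of these other markers were highest in the library labelled Ctrl replicate 4. In CPM, 52.1% of the expressed genes were above the highest of Ctrl replicates 1 to 3 in that library. Among the 9 was Myh11, the smooth muscle myosin, with 21.4, 18.5 and 22.1 CPM in Ctrl 1 to 3, 33.9 in the library labelled Ctrl 4, and 16.7 and 15.1 in LSD1skm-/-. Endothelial markers, at 297 to 330, 397 and 261 to 276 CPM, and Schwann markers, at 49.4 to 122, 181 and 62.3 to 99.5 CPM, were also highest in that library.

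Among the other cell types, fibroblast markers summed to 831 to 939, 977 and 1120 to 1244 CPM, and Lum, the matrix proteoglycan lumican, was the 1 of 10 tested that was higher without the library labelled Ctrl replicate 4 (log2 fold change 0.81, adjusted p = 0.0302, edgeR). Tendon and cartilage markers summed to 50.1 to 60.1, 85.7 and 77.7 to 79.8 CPM, and Thbs4, a thrombospondin, was the 1 of 5 that was higher (log2 fold change 0.53, adjusted p = 0.0267, edgeR). Erythroid markers summed to 28.0 to 41.5, 55.4 and 65.7 to 66.5 CPM, and Hbb-bs and Alas2 were 2 of 5 that were higher. Satellite cell markers summed to 66.8 to 85.6, 103 and 99.1 to 102 CPM, macrophage markers to 40 to 87.1, 74.0 and 66.7 to 106 CPM, and neutrophil and mast cell markers to 2.49 to 5.72, 6.42 and 3.62 to 4.68 CPM, with no marker called.

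Slow-twitch fiber genes summed to 2351 to 3517, 3061 and 1958 to 2600 CPM, of which 37.8% to 73.5% was Myh2, the myosin of fast IIa fibers. Without Myh2, a sum taken after seeing the data, they came to 1154 to 2188 CPM in Ctrl replicates 1 to 3, 1432 in the library labelled Ctrl replicate 4 and 519 to 886 in LSD1skm-/- muscle. Myh7, the slow myosin, had 235, 241 and 486 CPM in Ctrl 1 to 3, 235 in the library labelled Ctrl 4, and 36.6 and 86.1 in LSD1skm-/-, and Tnnc1, the slow troponin C, had 69.3, 63.1 and 122 CPM in Ctrl 1 to 3, 81.7 in the library labelled Ctrl 4, and 9.1 and 31.6 in LSD1skm-/-. At both, the library labelled Ctrl replicate 4 was near the lower values of Ctrl replicates 1 to 3 and above the LSD1skm-/- libraries. Without that library, Myh7 and Tpm3 were 2 of 10 tested that were lower at an adjusted p under 0.05 (20%, edgeR), beside 1.02% of all genes tested, and the list's median log2 fold change was -1.3. Cd28, a receptor of T-cell costimulation, was the 1 of 2 tested costimulation genes that was lower (log2 fold change -3.52, adjusted p = 0.00122, edgeR), with 6.0, 7.24 and 5.03 CPM in Ctrl 1 to 3, 0.654 in the library labelled Ctrl 4, and 0.457 and 0.635 in LSD1skm-/-. Fast-twitch fiber genes and costimulation genes held no selected gene, and of the 17 phospholipase A2 genes in the count table Pla2g5 was the only one.

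Positions on GRCm38, taken from GENCODE vM21, were found for 126 of the 127 genes, of which 114 are protein coding (90.5%, against 90.1% of expressed genes). The median exon length was 4119 bases, against 4275 for expressed genes. The X chromosome carried 12 selected genes, 9.52% against 3.24% of expressed genes, and chromosome 6 carried 15, 11.9% against 5.2%. As the genes were chosen on their values and neighbours can share reads or control, these shares are a description. Zfp92, Rab9b and Tceal3 were the X-linked genes with the largest ratios. Tceal3, of the TCEAL family of small nuclear proteins, had 0.0275, 0.0613 and 0.138 CPM in Ctrl 1 to 3, 1.82 in the library labelled Ctrl 4, and 1.5 and 2.06 in LSD1skm-/-. Armcx2, of a neighbouring gene family, had 1.93, 2.3 and 2.35 CPM in Ctrl 1 to 3, 9.16 in the library labelled Ctrl 4, and 7.86 and 9.34 in LSD1skm-/-.

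**Figure D4:**
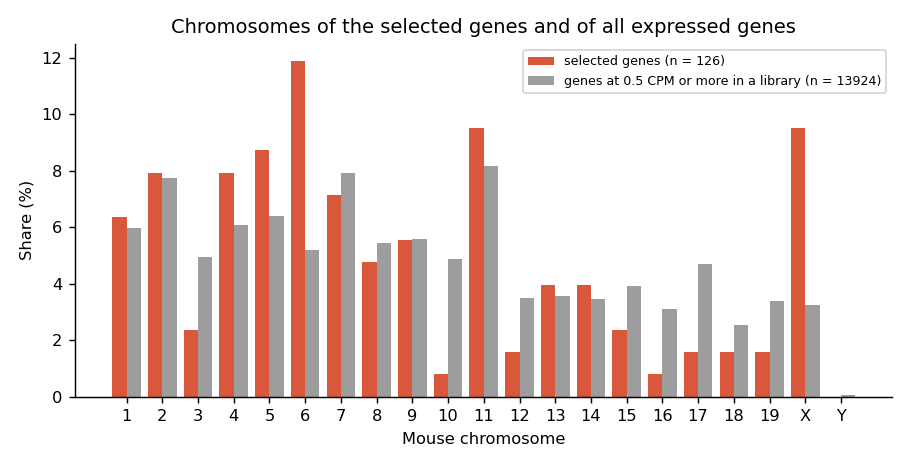
Share (%) of the 126 selected genes with a position (red) and of the expressed genes with a position (grey) on each mouse chromosome. The bars differ most on chromosome 6, at 11.9% and 5.2%, and on the X chromosome, at 9.52% and 3.24%.

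Nap1l3, Armcx2, Gprasp2, Tceal3 and Rab9b, 5 of the X-linked genes, lie within 14.5 Mb (122394565 to 136868755) that hold 41 expressed genes. Of 22 other genes tested in that stretch, whose ends the selected genes set, 3 (13.6%) were higher at an adjusted p under 0.05 without the library labelled Ctrl replicate 4 (edgeR), Bhlhb9, Tceal8 and Tceal9, beside 4.25% of all genes tested, and the median log2 fold change of the 22 was 0.05. The annotated span of Bhlhb9 contains the selected gene Gprasp2 on the same strand and their exons overlap, so reads of the pair cannot be told apart, and without it 2 of 21 were higher. By labels 0 of 25 were higher. Bhlhb9 had 2.34, 2.33 and 2.76 CPM in Ctrl 1 to 3, 7.73 in the library labelled Ctrl 4, and 5.9 and 4.47 in LSD1skm-/-. Gprasp1, in the same stretch, had 18.8, 20.1 and 18.5 CPM in Ctrl 1 to 3, 24.5 in the library labelled Ctrl 4, and 23 and 16.7 in LSD1skm-/-, with overlapping groups.

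On chromosome 6, Clstn3, Gnb3, Gpr162 and Lag3 lie within 1 stretch, with 439567 bases between Clstn3 and Lag3, and 18169 bases between Gnb3 and Gpr162. Opn1sw and Ccdc136 are 7841 bases apart on the same chromosome, and Slc22a7 and Ttbk1 are 3991 bases apart on chromosome 17. Neighbours were the adjacent genes on the chromosome among those at 0.5 CPM or more in a library. Over all selected genes, 8 had another selected gene as such a neighbour, and no such count was taken for other genes. Of the other genes next to a selected gene, 191 were tested, and none was called by labels in edgeR's test. At an unadjusted p under 0.05, 18 of the 191 were higher, beside 5.02% (570 of 11364) of all genes tested. DESeq2 called 1. Without the library labelled Ctrl replicate 4, 11 of 190 (5.79%) were higher, beside 4.25% of all genes, and 1, Flnc, was lower, beside 1.02%. Of the 11, Bhlhb9 overlaps exons of a selected gene on the same strand and Plbd2 on the opposite strand. The median log2 fold change of these neighbours was 0.06. Ptms, beside Lag3, rose by 1.27 on the log2 scale (standard error 0.14, adjusted p = 0.00429, edgeR), with 48.1, 44.9 and 43 CPM in Ctrl 1 to 3, 125 in the library labelled Ctrl 4, and 99.6 and 129.8 in LSD1skm-/-. C130080G10Rik, 787 bases from Actc1, rose by 2.78 (standard error 0.59, adjusted p = 0.0424, edgeR), with 0.138, 0.981 and 0.276 CPM in Ctrl 1 to 3, 1.65 in the library labelled Ctrl 4, and 2.51 and 4.0 in LSD1skm-/-.

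Promoter windows were found for 92 of the 127 genes. The selected genes had a median of 14 CpGs per 300-base window, against 20 in the 10590 expressed genes with a window and 7 in all 27025. At least 15 CpGs were present in 46.7% of selected, 68.5% of expressed and 35.2% of all promoters. The count spanned 0 in Opn1sw to 49 in Stk39, and the mean of the windows was taken for genes with several. TATAAA, searched in the direction of the gene, was present in 12 of the 92 (13.0%), against 5.77% of expressed and 9.77% of all promoters, among them those of Actc1, Crybb1, Ndrg4 and Abca4. The E-box CAGCTG, read the same on both strands, was in 25%, 18.5% and 18.3%. For these letters a match in any window of a gene counted, and selected genes had more windows each, a mean of 1.52 against 1.29 in expressed genes and 1.22 in all. Counted per window, a share taken after seeing the data, TATAAA was in 8.57%, 4.67% and 8.32%, and CAGCTG in 18.6%, 15.9% and 16.3%, of the windows of selected, expressed and all genes.

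**Figure D5:**
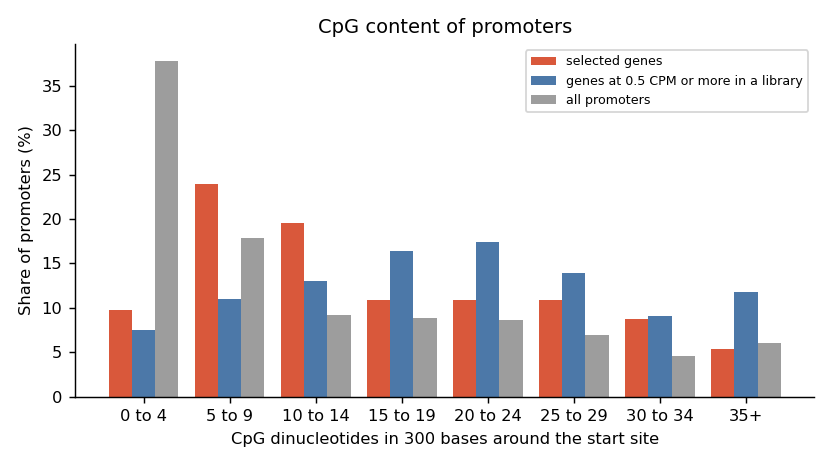
Share (%) of promoters by the number of CpG dinucleotides in the 300-base window, for the 92 selected genes with a window, for the 10590 expressed genes and for all 27025 genes. Selected genes fall most often into the classes of 5 to 9 (23.9%) and 10 to 14 CpGs (19.6%), where expressed genes have 11% and 13%.

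Apart from AGAACA, the other letter patterns, searched on both strands, were seldom present. Here too a match in any window of a gene counted. The letters AGAACA, one side of the glucocorticoid response element, were found in 16.3% of selected promoters, against 15% of expressed and 21.3% of all promoters. Counted per window, a share taken after seeing the data, AGAACA was in 13.6%, 12.9% and 19% for selected, expressed and all genes. Both sides of the REST site, TTCAGCACC and GGACAGCGC, were found in 1 (Efs) and 0 of the 92, against 0.378% and 0.755% of expressed promoters. The NRF1 core GCGCATGC was in 1 (1.09%), Zfp92, against 5.7%, the CREB site TGACGTCA in 4 (4.35%) against 3.44%, and the FoxO site TGTTTAC in 2 (2.17%) against 3.14%. The MEF2 letters TAAAAATA and the MEF3 letters TCAGGTTTC were in 1 promoter each (1.09%), against 1.83% and 0.519%. A match is a stretch of letters and not a bound site, and its absence says only that the letters are not in this window.

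Overlap with other genes limits some values. Exons of 36 selected genes, Zfp92, B3gat1, Galnt5, Fancd2 and Nt5dc2 among them, overlap an exon on the opposite strand, and those of 7 an exon on the same strand, and Xlr3b (56.5%), Gm42047 (64.8%) and Gm5111 (23.1%) share 50-base stretches with other genes, as does Igf2. Of the 127, 60 had a mean count of 50 or less over the 6 libraries, so counting error adds to the spread of these.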

How the data were processed

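RNA-seq libraries of skeletal muscle were analysed for 4 Ctrl and 2 LSD1skm-/- samples, grouped by their labels. Per the labels, libraries were made from polyadenylated RNA with a stranded kit and reads were converted with bcl2fastq 2.20.0.422. The authors removed adapter dimers, mapped reads of 50 bases to mm10, kept those with 1 alignment and counted reads per gene with HOMER, and the deposited values are raw counts. The aligner and the strand setting are not given in the sources used here. No column was left unused.

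The rule (0.5 CPM, a factor of 3) used column totals. The members and gene lists were chosen with earlier results of these data known, and the functional groups with the members in view. Genes with a mean count above 50 were compared with edgeR 4.0.16 in R 4.3.3 (TMM scaling, quasi-likelihood test, condition only, Benjamini-Hochberg adjustment) and DESeq2 1.42.0. The fit was tested on simulated data. Named are the 25 largest ratios, the 10 highest levels, the 10 lowest positions in the library labelled Ctrl replicate 4, the 5 on either side of each limit, genes of the groups, and some of the called relatives, neighbours and markers. Positions are from GENCODE vM21 (GRCm38) and promoters from RefSeq (GRCm38.p6). Alternatives were other limits, scalings, filters, pseudocounts, a replicate block and libraries left out.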

Additional observations from a re-analysis of the deposited data

Results flagged for a closer look

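Among the 4 Ctrl libraries, the one labelled Ctrl replicate 4 stood apart at many selected genes. A library was marked when its gap to the nearest other library, divided by the range of the 4, exceeded Dixon's 95% critical value, which chance exceeds in about 1 of 20 groups. For Actc1 this value was 0.886, with 3319 CPM against 597 CPM in the nearest Ctrl library. For Phyhip it was 0.982, with 2.86 CPM against 0.0828 CPM. In all, 99 of the 127 selected genes were marked (78%), each time for this library. Over the 14136 expressed genes, 909 (6.43%) were marked for it, and 101, 117 and 149 for Ctrl replicates 1, 2 and 3. The rule that chose the genes had required low values in Ctrl replicates 1 to 3, so the count of selected genes is a description. Kdm1a, at 3.88 CPM in that library and 21.8 to 26.7 CPM in the others, was not past the limit.

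Among family relatives called in either direction without that library, 8 of 36 were marked for it, and among called neighbours 5 of 12, beside 31.8% of the 534 called genes that were not selected. Calls made without that library favour genes with like values in Ctrl replicates 1 to 3, so these counts too are a description. The summed CPM of the denervation and developmental muscle list (0.88), which holds Actc1, and of the phospholipase A2 list (0.85), which holds Pla2g5, were marked for the same library. Pla2g5 was not alone there. Pla2g7, at 122.7 CPM against 55.3 to 79.3 in Ctrl 1 to 3, and Pla2g4e, at 53.9 against 29.7 to 34.3, are not selected genes. Of the 16 listed genes other than Pla2g7, 3 were highest in that library. The cause was not tested.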

How the results depend on the processing

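The selection moved with its own limits. A fold of 2 gave 275 genes, of which 240 passed in the library labelled Ctrl replicate 4, and a fold of 4 gave 75, of which 63 passed. Of the 67 with a mean count above 50, 59 passed. A limit of 1 CPM gave 100 genes, of which 85 passed. TMM scaling gave 117 genes, of which 95 passed (81.2%), and DESeq2 scaling 119, of which 96 passed (80.7%). These numbers of genes were within 1.5 times of 127, and the shares under both scalings were the lowest of these settings. Leaving out 1 library gave 142 to 174. The median position of the library labelled Ctrl replicate 4 was 0.938 to 0.984 under other scalings, pseudocounts and filters. The median CpG count of 14 became 18 over genes with a mean count above 50.

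No gene was higher at an adjusted p under 0.05 in edgeR by labels, nor with other scalings. DESeq2 called 18, and edgeR with no filter beyond 1 count called 59 of 27041 genes. Leaving out libraries gave 0 to 476, and the 476 came without the library labelled Ctrl replicate 4, where DESeq2 called 692. At an unadjusted p under 0.05, no filter gave 1047, and leaving out libraries gave 209 to 1386 against 570, with 319, 322 and 358 without Ctrl replicates 1, 2 and 3. The lowest, 209, lacked LSD1skm-/- replicate 2, and the highest, 1386, the library labelled Ctrl replicate 4. The median log2 fold change of the tested members ranged from 1.20 to 2.44 with libraries left out. DESeq2 called 1 relative and 1 neighbour by labels. Without the library labelled Ctrl replicate 4, edgeR called 35 relatives, of which 26 lay beyond the large Zfp and Tmem stems, and 11 neighbours, and DESeq2 called 51 and 14. That split by stem and the DESeq2 fits without that library were chosen after seeing the data.

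With the replicate number as a replicate block, 461 genes were higher at an adjusted p under 0.05, 1105 at an unadjusted p, and the members' median log2 fold change was 2.48. Only numbers 1 and 2 are shared by both groups, so Ctrl replicates 3 and 4 add nothing to the contrast in that fit. Deviations of samples of the same number had correlations of -0.233 and -0.0334, and those of crossed numbers 0.233 and 0.0334. The deviations of 2 LSD1skm-/- libraries from their mean always mirror each other, so these correlations cannot settle pairing. The numbers were not taken as pairs.

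With 2 LSD1skm-/- libraries, the spread within that group rests on 1 difference per gene. Counts of 3 or fewer in the Ctrl libraries leave the ratios of 15 genes open to wide counting error, and values near 0.5 CPM decide membership by a few reads.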
